A study of Mus musculus with 6 samples.

Results

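The 49 cytosolic ribosomal protein genes described here, of 18193 genes with a named probe set, are those whose single symbol in the platform's annotation begins with Rpl, Rps or Rplp and a number, or is Rpsa. Ribosomal S6 kinases, Rps19bp1 and pseudogenes were left out, so membership rests on names and on no measured value. Of the 49 genes, 26 belong to the large subunit, its P stalk included, and 23 to the small subunit. Genes whose probe sets all carry several symbols, usually the gene and its processed copies, are not among them, and 31 further ribosomal genes were measured only in that way.

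The study profiled mouse embryo hearts at E10.5, the mid-gestation day on which the looped heart tube is forming chambers. Embryos were of the C57BL/6N background, and biotin-labelled cRNA from total heart RNA was hybridised to 3 arrays for the wild type (WT) and 3 for the knockout (KO). The knockout is a global gene trap of Rnd3, also called RhoE, a GTP-binding protein that does not hydrolyse GTP and restrains the kinase ROCK1. The trap is present in every cell of the embryo, and the hearts were taken at the stage from which such embryos begin to die, per the series' design text. That text speaks of littermate pairs, but the labels do not say that a replicate number marks a litter, or whether an array holds 1 heart or several, so p-values measure the spread between these arrays. The comparison asks what changes in the heart transcriptome when Rnd3 is lost.

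Each ribosome contains a single copy of nearly every ribosomal protein, and the stalk proteins are present in several copies. Their mRNAs are among the most abundant in any growing cell and start with an uninterrupted stretch of pyrimidines, the terminal oligopyrimidine tract, through which the mTOR pathway and the RNA-binding protein LARP1 set how well they are translated. The level of the mRNA, which is what an array reads, is a separate quantity from that translation. Cardiomyocytes of the embryo divide while they contract, and a growing tissue spends much of its transcription on ribosomes.

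The start regions of the 5 members with the smallest p-values are shown because they illustrate this architecture and how much it varies. Each covers 30 bases before and 20 bases from the annotated start onward, read 5′ to 3′ on the strand of the gene, from RefSeq on GRCm38.p6, with the longest run of C or T in capitals. The regions lie at chr2:32961682-32961731 on the plus strand for Rpl12, chr12:28635934-28635983 on the minus strand for Rps7, chr9:44407684-44407733 on the plus strand for Rps25, chr3:28805478-28805527 on the plus strand for Rpl22l1 and chr3:90213629-90213678 on the minus strand for Rps27.
Rpl12: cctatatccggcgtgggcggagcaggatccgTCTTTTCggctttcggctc
Rps7: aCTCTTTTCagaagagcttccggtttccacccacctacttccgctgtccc
Rps25: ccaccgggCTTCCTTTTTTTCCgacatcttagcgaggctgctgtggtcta
Rpl22l1: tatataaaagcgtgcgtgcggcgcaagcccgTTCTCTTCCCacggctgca
Rps27: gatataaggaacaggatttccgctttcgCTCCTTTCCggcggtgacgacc

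In Rpl12 and Rpl22l1 the run opens at position 2 counted from the annotated start as 1, in Rps27 it opens 2 bases before the start, in Rps25 a 14-base run opens 22 bases before it, and in Rps7 the run opens 29 bases before it. RefSeq held a start region for 43 of the 49 members. A run of 8 or more C or T in these 50 bases was present in 22 of the 43 (51.2%) and in 22.9% of 27025 genes of the same table. A C or T at the annotated start itself was present in 21 of the 43 (48.8%) and in 33.2% of all genes. The motif CCGGAAG, on either strand of the 300 bases from 250 before to 50 after the start, was present in 21 of the 43 (48.8%) and in 9.93% of all genes. Its reverse strand, CTTCCGG, can overlap a C or T run, and a gene with several starts counted if any of them had the feature. The letters TATAAA on the gene's strand were present in 5 of the 43 (11.6%) and in 9.77% of all genes. The median log2 fold change (KO minus WT) was 0.01 over the 21 tested members with the C or T run and 0.05 over the 19 without it.

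Levels are MAS5 signals, a linear brightness per probe set that can be compared between arrays but not between probe sets, and each gene is represented by its brightest probe set. Differences are KO minus WT on the log2 scale with limma's standard error, and a gene is said to rise or fall where limma's adjusted p was below 0.05. Rnd3 itself read 909, 954 and 862 on the WT arrays and 5.89, 12.3 and 121 on KO arrays 1, 2 and 3 (log2 fold change -5.46 ± 0.81 SE, limma adjusted p = 0.0344, and 0.114 to 0.170 without any 1 WT array). Xist, the RNA that silences one X chromosome in females, was low on KO arrays 1 and 3 (539 and 28.4) and high on the other arrays (8884 to 12474), so the groups were not matched in Xist. The 13 cardiomyocyte markers were all above the low-signal limit (the 40th percentile of each array's signals, 44.5 to 52.8). None passed the test, where 1.27% of all genes did, and 9 were negative (median log2 fold change -0.12). The KO arrays lay wholly below the WT arrays in 4 of the 13 and wholly above them in 1, where 15.5% and 10.8% of all genes did. Of 6 endothelial markers, 5 were positive (median 0.12) and none passed. Markers of endoderm from liver or yolk sac had negative fold changes in 9 of 9 tested genes, as did 7139 of all 12712 genes. Among these markers Alb fell by 1.97 (limma adjusted p = 0.049997). A gene near the limit can be tested through its 3 WT arrays alone, which favours negative values. The summed signal of the 9 was 1826 to 7598 in WT and 601 to 2259.97 in KO, and Apoa4 and Ahsg were below the limit on every array. The ratio of the 3′ to the 5′ Gapdh control probe set, a measure of RNA integrity and labelling, was 1.11 ± 0.0175 (SD, n = 3) in WT and 0.969 ± 0.0274 in KO. The same ratio for Actb was 2.52 ± 0.15 in WT and 2.40 ± 0.16 in KO, with overlapping groups. The part of these differences in the values below was not tested, beyond a fit with Xist as a covariate. That fit weighted KO arrays 1, 2 and 3 by 0.34, 0.87 and -0.21 in its KO minus WT value. It thus rests mostly on KO array 2. In it 6 of all genes passed, 3 higher and 3 lower, in place of 162, and its values are given beside the calls below. Rnd3 passed in it and Alb did not (limma adjusted p = 0.0134 and 0.164), and Alb's call was also lost without any 1 WT array, KO array 2 or KO array 3 (adjusted p from 0.0781 to 0.213). With 3 arrays in a group, the number of arrays limits the precision.

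By each gene's brightest own probe set, cytosolic ribosomal protein mRNAs as a group were close to their WT level in Rnd3 KO hearts. Over all probe sets of ribosomal protein genes, medians differed by signal class, from -0.38 to 0.27. The lowest was that of the members' own probe sets below 1000, which include the brightest ones of Rpl12, Rps27 and Rpl39. The highest was that of probe sets shared with other symbols at 1000 to 10000, most of them for genes that are not members. In RNA of a whole heart, fewer cells of a type and less RNA per cell cannot be told apart. Of the 46 members tested, 0 rose, 1 fell (Rpl12) and 45 did not pass limma's test at an adjusted p of 0.05, where 1.27% of the 12712 genes tested passed (0.787% higher in KO and 0.488% lower). All 46 were above the low-signal limit on all 6 arrays, so the filter did not select them through one group. At an adjusted p of 0.10, 5 members passed, 3 of them higher in KO (Rps7, Rpl22l1 and Rps27) and 2 lower (Rpl12 and Rps25), against 6.33% of all genes. At an unadjusted p of 0.05, 7 members were higher and 3 lower, beside 8.54% and 11.8% of all genes (20.3% in both directions together).

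The fold changes were small. The median over the 46 members was 0.01 on the log2 scale and that over all genes was -0.04, and 30 members (65.2%) had a positive value where 43.8% of all genes did. With the arrays centred on their medians, the members' median was 0.07 and that of all genes 0.02, and 37 members were positive. The majority did not hold in every fit: 21 of 46 were positive with Xist as a covariate (median -0.01) and 23 without WT array 1 (median -0.0062). The Xist fit rests mostly on KO array 2, the lowest KO array for 36 of the 46 members. The KO arrays lay wholly above the WT arrays in 10 members (21.7%) and wholly below them in 4 (8.70%), where 10.8% and 15.5% of all genes did. Neither share was tested against the other genes, and the members vary together across arrays, as shown further on. The large subunit, stalk included, had 18 positive values among 24 tested genes (median 0.03), and the small subunit had 12 among 22 (median 0.0034). limma's standard error was 0.06 to 0.26 among the members (median 0.07) and had a median of 0.14 over all genes. The fit moderates variances along a trend with signal, so the standard error depends on brightness, and most members are bright. Whether the members varied less between arrays of a group than other genes of like signal was not tested. How fully probe sets as bright as most of theirs register a change was not tested.

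**Figure D1:**
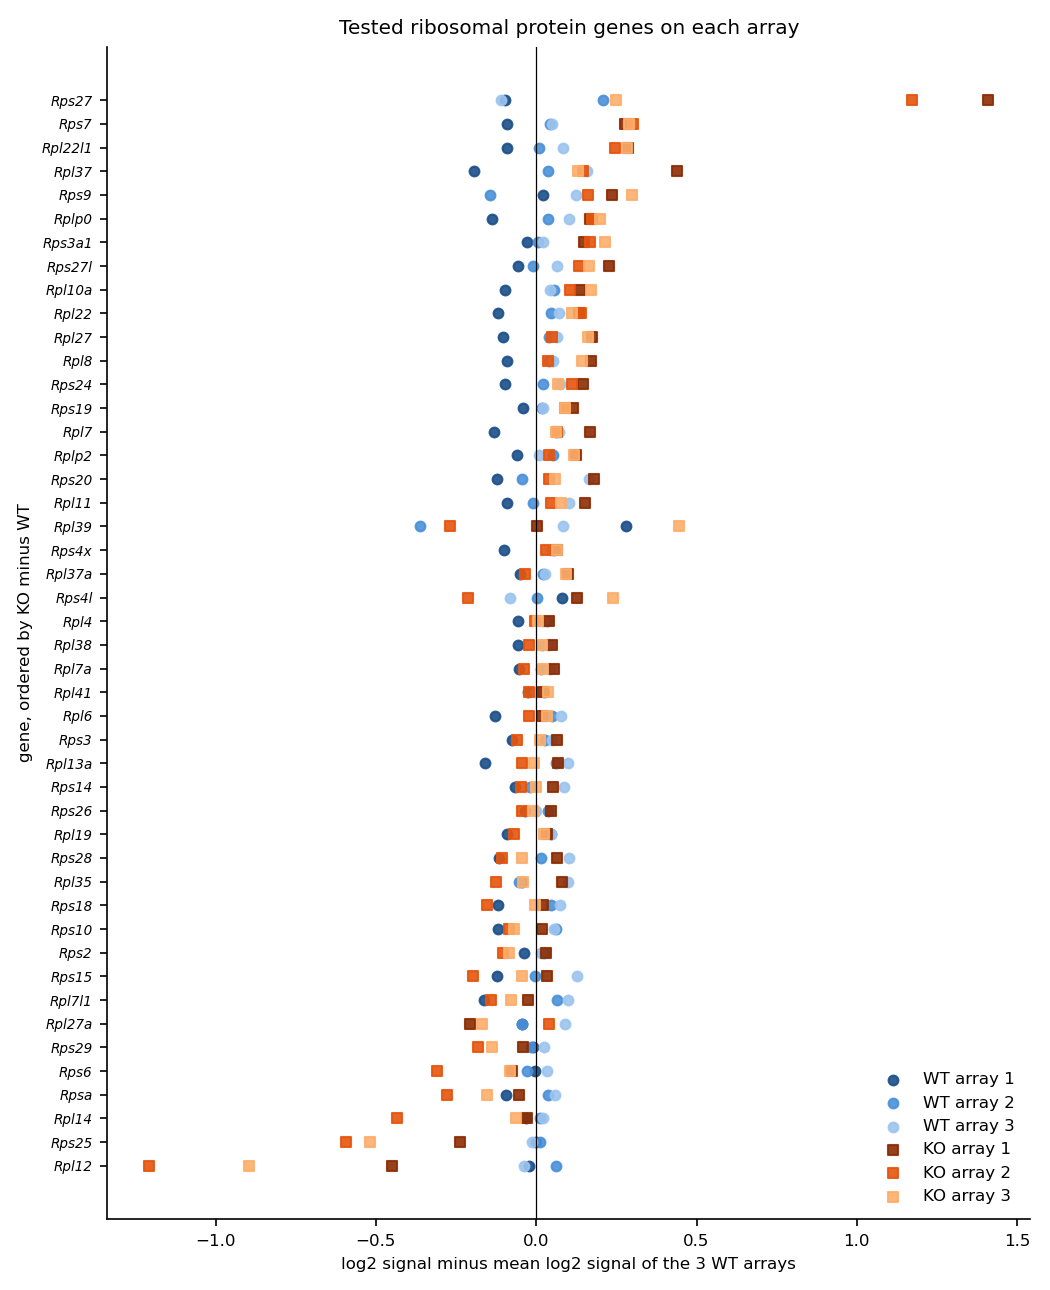
Log2 signal of the 46 tested ribosomal protein genes on each of the 6 arrays, as the difference from the mean of the 3 WT arrays (horizontal axis), with genes ordered by KO minus WT (vertical axis). Circles are WT and squares are KO. Most genes stay close to 0, Rpl12 and Rps25 lie to the left on all 3 KO arrays and Rps27 and Rps7 to the right.

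The P stalk, the flexible arm of the large subunit that recruits elongation factors, was represented by Rplp0 and Rplp2. The scaffold protein gene Rplp0 read 23487, 26504 and 27787 on the WT arrays and 29080.5, 29193 and 29696 on the KO arrays. All 3 KO arrays were above all 3 WT arrays, and the difference of 0.18 ± 0.07 did not pass (limma adjusted p = 0.185). Rplp2, one of the acidic proteins bound to that scaffold, read 31938, 34525 and 33544 in WT against 36276, 34228 and 36168 in KO. Its groups overlapped at KO array 2, and the difference was 0.09 ± 0.06. Rpsa, a small-subunit protein that also serves as a cell-surface laminin receptor, went the other way, with 31604, 34583 and 35111 in WT and 32512, 27799 and 30327 in KO. KO array 1 lay above WT array 1, and the difference of -0.16 ± 0.07 did not pass (limma adjusted p = 0.244). Averaging Rpsa's probe sets brought its difference to 0.0021, but its other probe set read only 33.5 to 71.3. That one was above the low-signal limit on KO array 3 alone.

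Rpl12, a protein at the base of the stalk, was the single member past the threshold, and its result rests on the 1 probe set that is annotated to Rpl12 alone. That probe set read 802, 851 and 793 on the WT arrays and 597, 353 and 438 on the KO arrays, or 815 ± 31.0 in WT and 463 ± 124 in KO (SD, n = 3). Every KO array lay below every WT array, with KO array 1 nearest to WT. Rpl12 fell by 0.85 ± 0.17 on the log2 scale (limma adjusted p = 0.0421). The call was lost when any WT array, KO array 2 or KO array 3 was left out, with adjusted p from 0.0606 to 0.192, and it remained without KO array 1 (adjusted p = 0.00416). It was also lost with Xist as a covariate (-1.01, adjusted p = 0.0651).

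Rpl12 is also read by 2 brighter probe sets that share their annotation with copies such as Gm11425, and those went in the opposite direction. The probe set annotated jointly to Rpl12 and Gm11425 read 15276, 16696 and 17089 in WT against 18762, 19078 and 19326 in KO. The KO arrays were all higher, by 0.22 ± 0.07 (limma adjusted p over all probe sets = 0.131). The other shared probe set, annotated to 4 symbols, read 28396, 29099 and 30538 in WT against 31836, 30875 and 31966 in KO, higher by 0.11 ± 0.06. In this fit of every probe set, which tests 27404 of them, the fall of the dim Rpl12 probe set had an adjusted p of 0.0552. The direction of Rpl12 therefore differs between its probe sets.

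Among the other large-subunit genes, Rpl22 and its paralog Rpl22l1 were both higher on every KO array. Rpl22l1, a close relative that can take the place of Rpl22 in the ribosome, read 13602, 14567 and 15371 in WT against 17692, 17203 and 17657 in KO. The groups were separated by more than their own spread, 14513 ± 886 against 17517 ± 273 (SD, n = 3), and the difference of 0.27 ± 0.07 had a limma adjusted p of 0.0676. Rpl22 itself, an RNA-binding protein of the large subunit, read 23471, 26351 and 26808 in WT against 27941, 28118 and 27550.0 in KO. Its difference was 0.13 ± 0.07 (limma adjusted p = 0.312).

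Rpl10a, which lies near the exit site of the large subunit, read 22449, 24932 and 24717 in WT against 26363, 25831 and 26996 in KO, without overlap (0.14 ± 0.06, limma adjusted p = 0.263). Rpl37 read 3258, 3829.8 and 4162 in WT against 5056, 4128 and 4081 in KO. WT array 3 lay above KO arrays 2 and 3, and the difference of 0.24 ± 0.11 was 0.14 without KO array 1 and 0.14 without WT array 1. The bright probe sets that Rpl37 shares with Rpl37rt differed by -0.0045 and 0.07. Rpl27 (0.13 ± 0.07) and Rpl8 (0.12 ± 0.07), a protein close to the peptidyl transferase centre, were higher on average with overlapping groups. Rpl38, known for its part in translating Hox mRNAs, was level, with 33241, 35008 and 35522 in WT against 35738, 34016 and 35044 in KO (0.01 ± 0.06). The 18 positive fold changes of the large subunit ran from 0.0048 for Rpl13a to 0.27 for Rpl22l1. The negative ones besides Rpl12 were those of Rpl14 at -0.18, Rpl27a at -0.11, Rpl7l1 at -0.08, Rpl35 at -0.03 and Rpl19 at -0.0033, all with overlapping groups. Brighter probe sets shared with other symbols differed by -0.14 to 0.06 for Rpl14 and by -0.0074 for Rpl27a.

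In the small subunit Rps7 had the smallest p and did not pass the threshold. Rps7, one of the ribosomal proteins that bind MDM2 and so link the ribosome to p53, read 25428, 27928 and 28010.2 in WT against 32809.6, 33432 and 33084 in KO. The KO arrays were nearly identical and all above WT, 33108 ± 312 against 27122 ± 1468 (SD, n = 3). The difference of 0.29 ± 0.06 had a limma adjusted p of 0.0502, just outside the threshold, of 0.0382 without KO array 1, of 0.0941 to 0.197 without any other 1 array and of 0.119 with the Xist covariate. Rps7's other own probe set gave 27795, 28563 and 30267 in WT and 31483, 30886 and 30784 in KO, higher by only 0.11 ± 0.06. The probe set annotated jointly to Rps7 and the copy Gm7285 read 12978, 14528 and 13894 in WT against 19023, 23188 and 21794 in KO. That one passed over all probe sets (0.63 ± 0.08, limma adjusted p = 0.0187), where 0.39% of all probe sets passed as higher. All 3 probe sets of Rps7 lay higher in KO without overlap, as 10.1% of all probe sets did, with sizes from 0.11 to 0.63.

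Rps25, a protein of the small-subunit head that some viral internal ribosome entry sites require, was lower on every KO array of its own probe set. It read 2145, 2164 and 2127 in WT, a spread of 18.5 (SD, n = 3), and 1817, 1423 and 1497 in KO (-0.45 ± 0.11, limma adjusted p = 0.0608). The adjusted p was 0.0140 without KO array 1, 0.103 to 0.219 without any other 1 array and 0.104 with the Xist covariate. Rps25's shared probe set, annotated also to Gm6988 and Gm4963, read 18228, 19951 and 19515 in WT against 20959.9, 19527 and 21185 in KO (0.10 ± 0.07). As with Rpl12, the own and the shared probe set had opposite signs, and here the shared one overlapped between groups.

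Rps27, a zinc-finger protein of the small subunit, showed the reverse. Its own dim probe set read 146, 180.0 and 144 in WT against 414, 351 and 185 in KO. KO array 3 was barely above the highest WT array and the other 2 KO arrays were well above it (0.94 ± 0.26, limma adjusted p = 0.0886). The bright probe set annotated jointly to Rps27 and Rps27rt read 23502, 25327 and 25839.8 in WT against 24536, 22212 and 23864 in KO, a difference of -0.08 with overlapping groups. The difference of the own probe set was 1.29 without KO array 3 and 0.71 without KO array 1, and it passed the threshold of 0.05 in none of the 20 alternatives run.

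Rps3a1, a protein at the platform side of the small subunit, read 29491, 30165 and 30520.2 in WT against 33295, 33742 and 34866 in KO. Its groups were separate by a margin larger than either spread, and the difference of 0.18 ± 0.06 did not pass (limma adjusted p = 0.122). Rps9 read 17306, 15416 and 18576 in WT against 20088, 19079 and 20982 in KO, again without overlap (0.23 ± 0.08, limma adjusted p = 0.138). A second probe set of Rps9 was higher by 0.32 ± 0.07, and a dim one differed by -0.41 ± 0.17. Rps6, the substrate of the S6 kinases downstream of mTOR, read 2872, 2822 and 2947 in WT against 2733, 2324 and 2724 in KO. All KO arrays were lower, and the difference of -0.16 ± 0.09 did not pass (limma adjusted p = 0.375). Probe sets that Rps6 shares with Rps6-ps4 differed by -0.11 to -0.0041 at a signal above 10000 and by 0.05 to 0.36 at 1000 to 10000. Dim ones near the low-signal limit, own and shared, differed by -0.38 ± 0.33 and -0.19 ± 0.41. Rps29 read 43185, 43019.7 and 44194 in WT against 42276, 38335 and 39516 in KO, lower without overlap and short of the threshold (-0.12 ± 0.06, limma adjusted p = 0.281). Rps20 (0.09 ± 0.08) and Rps18 (-0.05 ± 0.07) had overlapping groups.

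**Figure D2:**
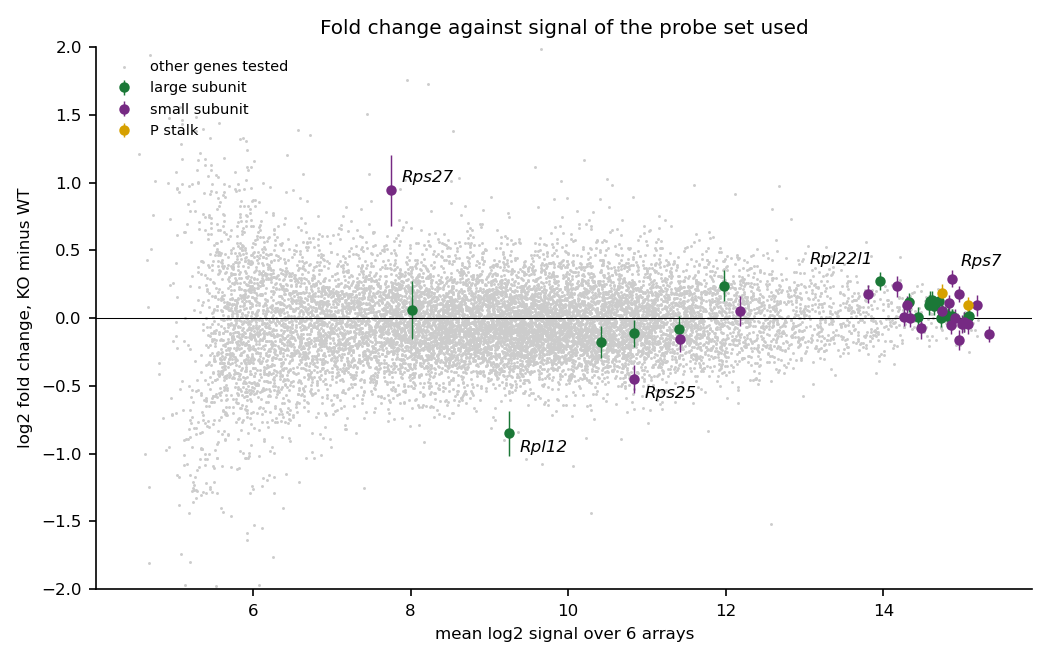
Log2 fold change (KO minus WT, vertical axis) against the mean log2 signal over the 6 arrays (horizontal axis) for the probe set that stands for each tested gene, with limma's standard error as bars for the members. Small points are the other tested genes, and those beyond 2 in either direction are outside the plotted range. The 36 members at a signal of 10000 or more lie between -0.16 and 0.29, and Rpl12, Rps25, Rps27 and Rpl14, all at lower signal, lie outside that range.

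Several members are the genes of Diamond-Blackfan anaemia, in which loss of 1 copy of a ribosomal protein gene impairs red cell formation. None of the tested ones named here, Rps7, Rps19, Rpl11, Rps10, Rps24, Rps26, Rps27, Rps28, Rps29, Rpl27 and Rpl35, passed, where 1.27% of all genes did. Rps19 read 18997, 19818 and 19856 in WT against 21185, 20827 and 20821 in KO, higher without overlap by 0.10 ± 0.06 (limma adjusted p = 0.387). Rpl11, which binds MDM2 together with Rpl5, differed by 0.09 ± 0.07 and Rps24 by 0.11 ± 0.06, both with overlapping groups. Rps26 was level (-0.0025 ± 0.06), and Rps10 differed by -0.05 ± 0.07. Rps28 and Rpl35 both differed by -0.03 ± 0.07, and the values of Rps27, Rps29 and Rpl27 are those given above. The 9 tested markers of erythroid cells, those most affected in that disease, had a median of 0.02. None of these passed either, beside the same 1.27% of all genes.

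Paralogs of standard subunits, taken by symbol, were measured for 6 genes, of which 4 were tested. Rps27l, a p53-induced relative of Rps27, read 12944, 13363 and 14085 in WT against 15756, 14746 and 15091 in KO, higher without overlap (0.18 ± 0.07, limma adjusted p = 0.180). Its other own probe sets were higher by 0.25 ± 0.06 and 0.26 ± 0.07 (limma adjusted p over all probe sets = 0.0889 and 0.119). Neither overlapped between groups, and 10.1% of all probe sets were higher in this way. Rps4l, the autosomal relative of Rps4x, overlapped (0.05 ± 0.11), and so did Rpl7l1 (-0.08 ± 0.09), whose parent Rpl7 differed by 0.10 ± 0.07. The striated-muscle paralog Rpl3l read between 4.86 and 32.8 and stayed below the low-signal limit on all 6 arrays. The testis-enriched paralog Rpl39l was above that limit on 1 WT array alone (64.7). Neither was tested. The X-linked members Rps4x and Rpl39 had overlapping groups. Rps4x read 25098 to 27916 in WT and 28103, 27450.4 and 28096 on KO arrays 1, 2 and 3, and Rpl39 read 197 to 309 in WT and 255, 211 and 346 on those arrays. Both were higher on the KO arrays low in Xist than on KO array 2, which was the lowest KO array for 36 of the 46 tested members. A bright probe set that Rpl39 shares with Gm32211 differed by -0.0057 ± 0.10.

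The third untested member, Rps16, shows what a single probe set can miss. Its own probe set read at most 10.2 on any array. The 2 probe sets annotated jointly to Rps16, Rps16-ps2 and LOC100862433 read from 23259 to 29597 across the arrays and differed by -0.07 ± 0.06 and 0.14 ± 0.08, neither past the threshold. No level was taken from the own probe set.

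Among the 36 members whose probe set had a mean signal of 10000 or more, a limit chosen after the values were seen, the differences between arrays followed a shared pattern. WT array 1 was the lowest WT array for 33 of these 36 genes (91.7%) and for 70.0% of the 350 other genes at that signal. KO array 2 was the lowest KO array for 29 of them (80.6%) and for 63.1% of the others. Their median difference from the WT mean was -0.09, 0.03 and 0.06 on WT arrays 1, 2 and 3, and 0.07, -0.01 and 0.05 on KO arrays 1, 2 and 3. The group means of these medians differed by 0.04, less than the spread among the WT arrays (SD 0.08, n = 3). Deviations from the group means correlated at a median r of 0.80 over the 630 pairs of these genes and at 0.45 over pairs of the other bright genes, a description over the same 6 arrays, which share their labelling and scaling. The members together gave 4.79 ± 0.15% of the summed signal of tested genes in WT and 4.95 ± 0.10% in KO (SD, n = 3), with WT array 1 the lowest at 4.61% and KO array 1 the highest at 5.05%.

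**Figure D3:**
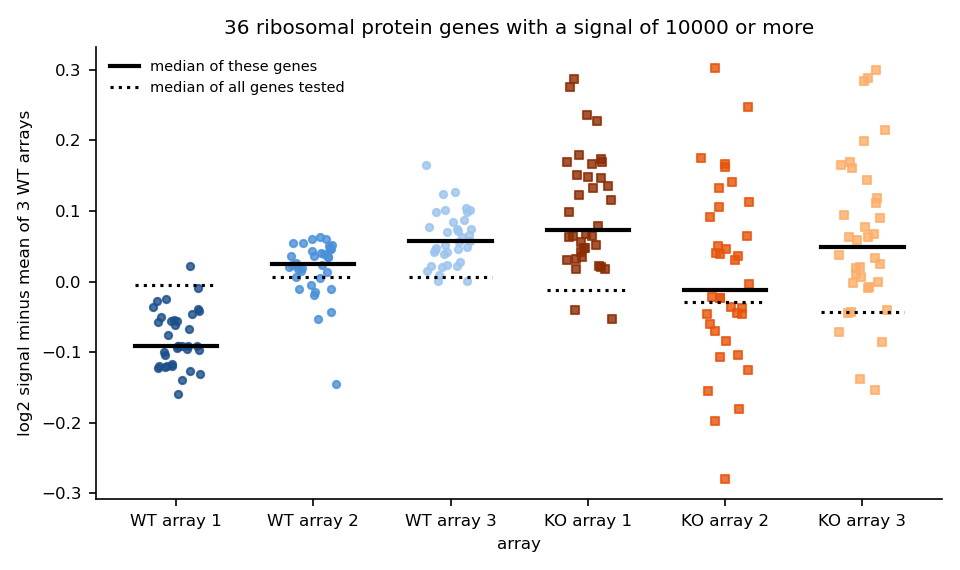
Difference from the mean of the 3 WT arrays in log2 signal (vertical axis) for the 36 ribosomal protein genes with a mean signal of 10000 or more, on each array (horizontal axis). Points are genes, the solid line is their median and the dotted line the median of all tested genes. The genes sit low on WT array 1 (median -0.09) and spread most widely on KO array 2, from -0.28 to 0.30.

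Within the members, the sign of the difference varied with the signal of the probe set. The 49 genes have 105 probe sets of their own, of which 95 were tested. Of the 70 with a mean signal of 10000 or more, 46 were positive (median 0.04, range -0.16 to 0.39). Of the 15 below 1000, 4 were positive and 11 negative (median -0.38), where all other probe sets at that signal had a median of -0.05. The 10 in between had 3 positive values and a median of -0.10. In all, 0 of the 95 passed in the fit of every probe set, where 0.595% of all probe sets did. These signal classes were set after the values were seen and carry no test.

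Probe sets of 1 gene also differed in sign. Rps24 has 4 bright probe sets, of which the one that stands for the gene read 26351, 28569.8 and 29668 in WT against 31166, 30454 and 29498 in KO. The 3 others of these were higher in KO without overlap, by 0.20 to 0.29. A dim probe set of Rps24 read 846, 894 and 555 in WT against 494, 376 and 309 in KO, lower without overlap (-0.96 ± 0.21, limma adjusted p over all probe sets = 0.0639). Rpl41, which encodes the smallest ribosomal protein, was level in its brightest probe set (0.01 ± 0.06). Its other bright one read 16252, 16078 and 16700.3 in WT against 15396, 15855 and 15834 in KO, lower without overlap (-0.06 ± 0.06), and its 2 dim ones differed by -0.61 ± 0.19 and -0.52 ± 0.20. Rps20 likewise combined 0.09 in its brightest with -0.28 and -0.32 in its dim probe sets. Not every dim probe set was lower: that of Rpl7l1 differed by 0.02 ± 0.17 beside -0.08 in its brightest, and that of Rps3, which lies at the low-signal limit, by 0.54 ± 0.86. Rpl7 had 3 bright probe sets and no dim one, and all were positive, at 0.10, 0.25 and 0.39, the last with 13822, 16593 and 16877 in WT and 19967, 19875 and 21747 in KO (limma adjusted p over all probe sets = 0.0678). Of the 21 genes with several tested probe sets, 11 had the same sign in all of them and 10 did not.

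**Figure D4:**
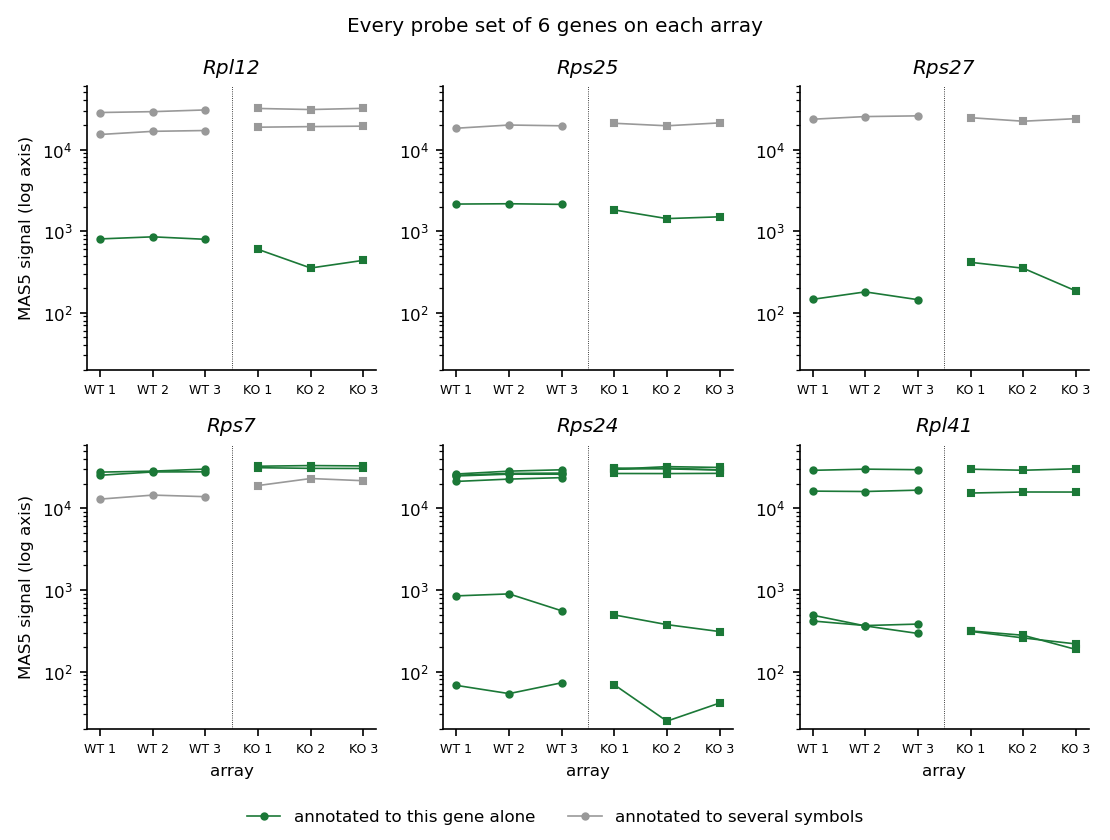
MAS5 signal (vertical log axis) on each array (horizontal axis) for every probe set of Rpl12, Rps25, Rps27, Rps7, Rps24 and Rpl41, green where annotated to that gene alone and grey where annotated to several symbols. Lines join the arrays of a group for 1 probe set and imply no order, and the heights of different probe sets are not comparable. The dim probe sets of Rpl12, Rps24 and Rpl41 are lower on average in KO, and the bright ones of Rpl12 and Rps24 higher, while those of Rpl41 differ by 0.01 and -0.06.

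Genes that act on ribosomes without being part of them were measured in the same fit. Of 141 tested genes in 3 lists, 1 rose and 3 fell, beside 0.787% and 0.488% of all genes. The 4 became 0 without any 1 of the WT arrays or KO array 3, 2 without KO array 2, 14 without KO array 1 and 0 with the Xist covariate (adjusted p from 0.0651 to 0.135). In the list for ribosome assembly and RNA polymerase I, 0 of 93 genes rose and 2 fell, 29 were positive and 64 negative, and the median was -0.10 against -0.04 over all genes. Nop56, a core protein of the box C/D particles that methylate ribosomal RNA, read 5584, 5657 and 5082 in WT against 4274, 3439 and 3814 in KO and fell by 0.51 ± 0.10 (limma adjusted p = 0.0389). Bms1, a GTPase of small-subunit assembly, read 6452, 6575 and 6305 in WT against 5341, 4167 and 4368 in KO and fell by 0.49 ± 0.10 (limma adjusted p = 0.0446). In both, every KO array lay below every WT array.

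Others on that list that fell short of the threshold were Taf1d, a subunit of the polymerase I selectivity factor (-0.72, limma adjusted p = 0.0536), the nucleolar GTPase Gnl3 (-0.51, 0.0645) and Rrp1b (-0.41, 0.0661). Eif6, which keeps free large subunits from joining, had a positive value (0.39, limma adjusted p = 0.0669). Among 34 translation factors and other genes with a pyrimidine start or on the ribosome, the median was 0.0045. Eif3m, a subunit of the initiation factor that holds the small subunit, read 1909.5, 1921 and 2016 in WT against 2569, 2963 and 2863 in KO and rose by 0.52 ± 0.09 (limma adjusted p = 0.0360). Eif5, which triggers GTP hydrolysis at the start codon, read 7177, 7347 and 7772 in WT against 5780.4, 5887 and 5241 in KO and fell by 0.40 ± 0.08 (limma adjusted p = 0.0421). With Eif5's probe sets averaged the value was 0.024.

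The histone chaperone Nap1l1 (0.46), Eif1a (0.38) and Btf3 (0.33), a subunit of the nascent-chain complex, were higher without overlap, with limma adjusted p from 0.0652 to 0.0954. Fau, whose product is cut into a ubiquitin-like part and the ribosomal protein eS30, was level (0.03 ± 0.07). Of 14 genes listed for the mTOR pathway of ribosomal protein mRNA translation, with Myc, Mycn, Max and Mdm2 added from outside it, none passed. Mtor, the kinase at the head of that pathway, read 1458, 1482 and 1556 in WT against 1239, 998 and 1209 in KO, lower without overlap (-0.39 ± 0.11, limma adjusted p = 0.0880). Its inhibitor Tsc2 had a positive value (0.29 ± 0.12, limma adjusted p = 0.224), as did Mdm2 (0.30 ± 0.17), and the mTOR partner Rptor a negative one (-0.25 ± 0.16).

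A further pair of sets, housekeeping complexes of another kind, was read at lower signals than the members. Summed signal on WT array 1 was 195796 over 76 mitochondrial ribosomal protein genes, 198760 over 37 proteasome genes and 950977 over the 46 members. Of 76 mitochondrial ribosomal protein genes, 6 rose and 0 fell, where 0.787% and 0.488% of all genes did, with a median of 0.14. In 35 of them the KO arrays lay wholly above WT, where 10.8% of all genes did. Of 37 tested proteasome subunit genes, 1 rose and 0 fell, with a median of 0.10. The 6 mitochondrial rises became 1 with the Xist covariate (median 0.07), 0 without WT array 1 or 2, 1 without WT array 3 or KO array 3, 4 without KO array 2 and 19 without KO array 1. The proteasome rise was lost with the Xist covariate (median 0.02) and without any 1 array other than KO array 1, without which 4 genes rose. The median of the 46 cytosolic ribosomal protein genes, 0.01, was below both. This difference between lists was not tested, and the lists also differ in signal.

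**Figure D5:**
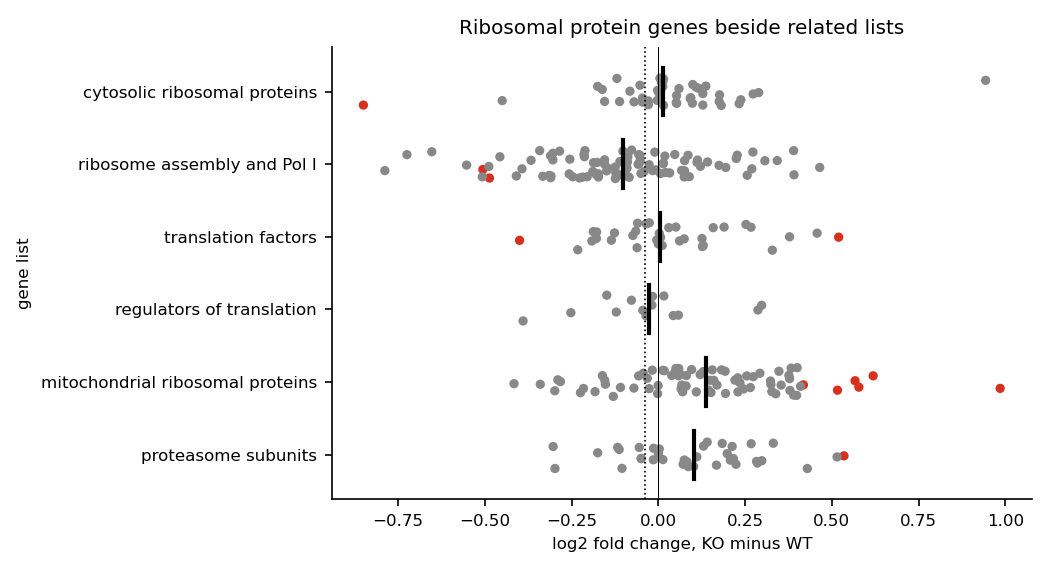
Log2 fold change (KO minus WT, horizontal axis) of every tested gene in 6 lists (vertical axis). Points are genes, red where limma's adjusted p was below 0.05, thick bars are the list medians and the dotted line is the median of all tested genes (-0.04). The cytosolic ribosomal proteins lie around 0 (quartiles -0.04 and 0.11), with Rpl12 to the far left and Rps27 to the far right.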

How the data were processed

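The authors deposited linear MAS5 signals, an intensity for each probe set. The submitters' processing notes name MAS5 and Affymetrix Expression Console, with no version in the sources used here. In the values, every array's mean after trimming 2% at each end was 499.8, so arrays were not scaled further. The 64 control probe sets were left out. Of the other 45037, 34945 had 1 symbol in the platform's annotation, 932 had several and 9160 were unnamed here; 34741 matched RefSeq and 0 symbols changed.

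Each gene was represented by the probe set with the highest mean log2 signal. Testing required that it exceed the array's 40th percentile (44.5 to 52.8), a working limit that is no measured background, on at least 3 of the 6 arrays. KO and WT, grouped by the labels' genotype, were compared on log2 values in R 4.3.3 with limma 3.58.1 (linear fit, moderated with a variance trend on signal, Benjamini-Hochberg adjustment over all 12712 genes, threshold 0.05); ± beside a log2 fold change is limma's SE. A separate fit took every probe set, those with several symbols included. The procedure was tested on simulated data. Figures used matplotlib 3.10.9.

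The members and lists were chosen with earlier results of these data known. Named were members past the threshold, those of smallest p, stalk genes, paralogs, X-linked and Diamond-Blackfan genes, the members of highest and lowest signal, and in related lists the genes past the threshold and up to 4 more. Rpl13a, Rpl14, Rpl19, Rpl27a, Rpl35, Rpl41, Rps3, Rps28 and the non-members Rpl30 and Rps13 and the probe sets of other genes were singled out after their values were seen. Alternatives covered normalization, filters, probe set choice, variance model, array weights, a replicate block, an Xist covariate and leaving out each array.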

Additional observations from a re-analysis of the deposited data

How the results depend on the processing

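The number of members higher in KO, 0 in the analysis as reported, was 2 with quantile normalization and with array weights, 1 with the filter that requires all 6 arrays and 3 at an adjusted p of 0.10; leaving out 1 array gave 0 to 1, the 1 arising without KO array 1. The number lower, 1 as reported, was 0 without a filter, with probe sets averaged, with every probe set on its own, without an intensity trend, with the Xist covariate and in the fit of all probe sets (added after seeing the data), and 2 with the stricter filter, without _x_at probe sets, with array weights and at an adjusted p of 0.10; leaving out 1 array gave 0 to 2. The translation and ribosome assembly genes past the threshold, 4 as reported, numbered 2 with median centring, with every probe set on its own and with all probe sets, 0 without a filter, with probe sets averaged, without the trend and with the Xist covariate, 13 with array weights, 18 at an adjusted p of 0.10 and 0 to 14 when 1 array was left out. Rps24 reversed without _x_at probe sets, where its dim probe set stands for the gene (-0.96, limma adjusted p = 0.0462), and Eif5 with probe sets averaged (0.024, limma adjusted p = 0.926). The members' median lay between -0.01 and 0.07 under every alternative in which it was computed, and differed by less than the spread between arrays. Of 31 named members, 21 kept their sign under all alternatives and 10 did not (Rps29 came to 0 with quantile normalization), each of these with a fold change of at most 0.16 in size as reported. Over all 12712 genes the 162 calls became 916, 65 and 2 without KO arrays 1, 2 and 3, 0, 0 and 4 without WT arrays 1, 2 and 3, 83 with median centring (67 higher), 6 with the Xist covariate, 542 with array weights, 207 with quantile normalization, 1 without a filter, 0 with probe sets averaged and 1 without the trend. The cause of these changes was not tested.

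With the replicate number as a replicate block, 0 members were higher and 1 lower, 5 translation and assembly genes passed, and 189 of all genes were called. Same-numbered WT and KO arrays correlated at 0.018, 0.057 and 0.015 in their deviations from the group means, so the arrays were treated as unpaired, which leaves it unsettled whether a number marks a litter. Signal limits what dim probe sets can show: the own probe sets of Rps16, Rpl3l and Rpl39l gave no testable value.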

Other observations

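Ribosomal protein genes were also read by 110 probe sets annotated to several symbols, 33 of them with a member among those symbols. Of the 104 that were tested, 60 were positive (median 0.02), 2 were higher past the threshold over all probe sets and 0 were lower, where 0.39% and 0.204% of all probe sets were. The second of the 2 is annotated jointly to Rps13, Rps13-ps4 and Gm15483, and reads Rps13, a small-subunit protein. It gave 10234, 11269.7 and 10637 in WT and 13549, 13784 and 15249 in KO (0.40 ± 0.07, limma adjusted p over all probe sets = 0.0439). Another probe set with the same symbols gave 14455, 15181 and 15422 in WT and 18357, 18688 and 19353 in KO (0.32 ± 0.06, limma adjusted p = 0.0530). A dim one with these symbols had the opposite sign (-0.64 ± 0.30), with overlapping groups.

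The probe sets of Rpl30, a large-subunit protein, divided in the same way. A bright one, annotated to Rpl30 and 5 copies, gave 23174, 24282 and 25025 in WT and 28465, 26181 and 26559 in KO (0.16 ± 0.06). A dim one, annotated to Rpl30 and 4 copies, gave 208, 195 and 205 in WT and 129, 88.1 and 79.5 in KO (-1.07 ± 0.22, limma adjusted p over all probe sets = 0.0562), without overlap. Of the 13 shared probe sets below a signal of 1000, 10 were negative (median -0.27). All 12 with a signal between 1000 and 10000 were positive (median 0.27), and the 79 above had a median of 0.01. Which transcript, the gene's or a copy's, a shared probe set reads was not tested.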
